A study of Homo sapiens with 6 samples.

Results

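Collagen chain genes code for the alpha chains that fold in threes into collagens, and this account gives their transcript levels in U2OS 2-6-3 cells. Gene symbols were kept that consist of COL, a type number, A and a chain number. Each kept gene had a protein-coding RefSeq transcript on a primary chromosome and was read from its entry with the largest mean over the 3 deposited tables. This gave 43 chain genes of 18610 genes, of which 10 are fibrillar, 6 belong to basement membranes, 5 to beaded filaments and 10 to the FACIT class, the collagens that sit on the surface of fibrils. The other 12 form short chain networks, anchoring fibrils, transmembrane collagens and multiplexins, or belong to none of these. COL11A1 falls outside the selection, since its one entry is a noncoding transcript.

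U2OS 2-6-3 is 1 clone of a human osteosarcoma line that carries tet operator repeats and a reporter in its genome, and all cells stayed under white light overnight. The untransfected group had no plasmid. The mock group was transiently transfected with TetR-RFP and YFP, and the sample group with mCherry-MCP, CIBN-TetR and PHR-YFP-VP16, so both transfected groups also met the transfection reagent. Each group had 2 libraries, and whether these were separate cultures is not labelled, so the p-values cover a spread that may be technical. In the text the deeper library of a group is called a and the shallower b.

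Reads summed over transcript entries ran from 44594507 to 54177551 in 5 libraries and came to 9579278 in sample library b. Of 8 osteoblast markers, SP7, IBSP and DLX5 were at or near 0, RUNX2 fell in both transfected groups and ALPL rose, while the summed list stood at 816 to 884 normalized read counts in untransfected, 1360.4 to 1482 in mock and 1129 to 1418 in sample cells. The label of an osteosarcoma line therefore comes without 3 defining osteoblast transcripts. Of 6 fibroblast markers, DCN and POSTN were near 0. In the authors' deposited table PDGFRA and PDGFRB fell in both transfected groups and LUM in mock cells alone. THY1, the highest of them at a mean of 2382 in untransfected cells, was called in neither. The 6 summed to 4630.0 to 4772 in untransfected, 2781 to 2820 in mock and 3070.4 to 3996 in sample cells. The 4 chondrocyte markers summed to 1939 to 1943, 1701 to 1764 and 1548 to 2824 in the same order, and the highest value was that of sample library b. SOX9 made most of it, at 2512, whereas ACAN at 49.3 and MATN3 at 259 were there at their lowest of the 6 libraries. CNMD held 1 read in that library. Epithelial markers, led by KRT8 and KRT18, summed to 12900.0 to 14054, 14681 to 17551 and 15131 to 17354. By log2 fold change in the authors' deposited table, in mock and then sample cells, KRT18 rose (0.90 and 0.84), KRT8 was not called, and KRT5 (-3.39 and -3.28), KRT14 (-2.27 and -2.08) and EPCAM (-1.34 and -1.43) fell. Endothelial markers summed to 140.1 to 152 in untransfected, 15.7 to 26.1 in mock and 20.6 to 26.5 in sample cells, led by VWF, which fell by 2.87 and 2.36 in the authors' deposited table. Blood markers summed to 14.4 to 16.4, 10.2 to 19.8 and 65.8 to 108 in that order. HBB, the beta globin gene, made most of the last range, and the authors' deposited table calls it higher in sample cells against untransfected (3.14, adjusted p = 2.22e-10) and against mock cells (0.38, adjusted p = 0.0191). The part of these shifts in the collagen results was not tested.

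Collagen chains are made at the endoplasmic reticulum, where prolyl and lysyl residues are hydroxylated and 3 chains wind into a triple helix. Fibrillar procollagens are secreted, lose their propeptides, and assemble into fibrils that lysyl oxidases crosslink. Type IV collagen forms the sheet-like network of basement membranes, and type VI forms beaded filaments around cells. Cells bind collagen through integrins and discoidin domain receptors. Osteoblasts are known for a matrix made mostly of type I collagen, a trimer of COL1A1 and COL1A2 chains.

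Promoters of 6 chains are shown because the results turn on them. COL4A1 and COL4A2 are neighbours on opposite strands that rose together, COL6A3 and COL13A1 rose in both transfected groups, and COL9A2 and COL26A1 fell in both. The sequences run from 250 bases before to 50 bases after each gene's start and come from RefSeq on GRCh38.p14, whose table matched 31 of the 43 members. Capitals mark 4 motifs on either strand: the TATA box, searched as TATAAA, the CCAAT box by its name, the GC box, searched as GGGCGG, and the AP-1 site, searched as TGANTCA.
COL4A1, chr13:110307108-110307407, minus strand: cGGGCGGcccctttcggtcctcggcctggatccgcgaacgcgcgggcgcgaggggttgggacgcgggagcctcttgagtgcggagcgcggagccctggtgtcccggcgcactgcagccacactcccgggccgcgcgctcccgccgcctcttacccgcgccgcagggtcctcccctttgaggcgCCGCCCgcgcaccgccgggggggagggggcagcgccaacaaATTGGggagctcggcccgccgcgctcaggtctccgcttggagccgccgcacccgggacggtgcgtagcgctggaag
COL4A2, chr13:110307034-110307333, plus strand: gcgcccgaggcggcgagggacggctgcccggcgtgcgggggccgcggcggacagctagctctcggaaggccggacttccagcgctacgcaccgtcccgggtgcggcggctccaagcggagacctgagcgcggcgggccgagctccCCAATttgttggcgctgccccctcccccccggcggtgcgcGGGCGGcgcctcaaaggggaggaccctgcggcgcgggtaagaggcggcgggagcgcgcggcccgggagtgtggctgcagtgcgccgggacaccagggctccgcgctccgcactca
COL6A3, chr2:237414115-237414414, minus strand: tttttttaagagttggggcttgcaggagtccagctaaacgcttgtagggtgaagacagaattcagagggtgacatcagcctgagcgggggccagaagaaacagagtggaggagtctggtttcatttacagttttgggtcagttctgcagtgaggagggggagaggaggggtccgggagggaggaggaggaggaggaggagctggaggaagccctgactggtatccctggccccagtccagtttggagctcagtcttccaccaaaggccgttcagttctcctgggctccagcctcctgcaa
COL13A1, chr10:69801656-69801955, plus strand: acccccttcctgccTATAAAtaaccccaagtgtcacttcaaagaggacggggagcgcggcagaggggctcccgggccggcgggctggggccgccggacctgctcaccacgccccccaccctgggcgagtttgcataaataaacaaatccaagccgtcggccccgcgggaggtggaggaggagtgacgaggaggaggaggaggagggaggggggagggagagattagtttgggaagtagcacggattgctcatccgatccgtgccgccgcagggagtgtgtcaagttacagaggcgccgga
COL9A2, chr1:40317237-40317536, minus strand: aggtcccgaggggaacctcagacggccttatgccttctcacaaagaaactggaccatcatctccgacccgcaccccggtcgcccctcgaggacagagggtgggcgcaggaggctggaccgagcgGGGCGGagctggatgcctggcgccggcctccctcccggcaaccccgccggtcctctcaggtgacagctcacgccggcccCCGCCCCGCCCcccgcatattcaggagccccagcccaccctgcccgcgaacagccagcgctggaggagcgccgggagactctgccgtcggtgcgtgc
COL26A1, chr7:101362625-101362924, plus strand: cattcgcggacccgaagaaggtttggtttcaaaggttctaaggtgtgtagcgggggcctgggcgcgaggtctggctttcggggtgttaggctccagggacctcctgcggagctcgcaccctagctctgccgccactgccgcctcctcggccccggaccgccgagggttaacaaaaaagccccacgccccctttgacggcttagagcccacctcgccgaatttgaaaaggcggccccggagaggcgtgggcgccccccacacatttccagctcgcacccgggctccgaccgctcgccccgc

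The COL4A1 and COL4A2 windows share 226 bases, read on opposite strands. A CCAAT match at chr13:110307179-110307183 and a GC box match, GGGCGG, at chr13:110307219-110307224 lie in both windows. COL13A1 holds 1 TATAAA match, COL9A2 holds 3 GGGCGG matches of which the pair nearest the start overlaps by 1 base, and the COL6A3 and COL26A1 windows hold none of the 4 motifs. Over 27305 windows of the same length, TATAAA was present in 12.0% and in 5 of the 31 members, and CCAAT in 35.7% and in 9 of 31. GGGCGG was present in 44.6% of windows and in 17 of 31 members, and TGANTCA, the AP-1 site, in 7.76% and in none of the 31. The median GC content was 66.7% in the members and 58.3% in all windows. These matches describe the letters and show no binding.

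All 43 chain genes had reads in at least 1 library. With normalized read counts, in which each library is divided by its median-of-ratios size factor, 34 had a mean of at least 10 in at least 1 table, 25 of at least 50 and 12 of at least 1000. Summed over chains, collagen took 0.343% and 0.331% of gene reads in untransfected libraries a and b, 0.370% and 0.337% in mock libraries and 0.357% and 0.346% in sample libraries. The total share of gene reads thus differed little between groups, while its makeup moved between classes. By summed normalized read counts, however, every transfected library lay above both untransfected ones. Untransfected libraries held 69830 to 70609, mock ones 79954 to 84414, sample ones 79507 to 80805. Whether total collagen differed between groups therefore depends on the scaling. In bulk RNA, fewer cells of a kind and less RNA per cell cannot be told apart.

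**Figure D1:**
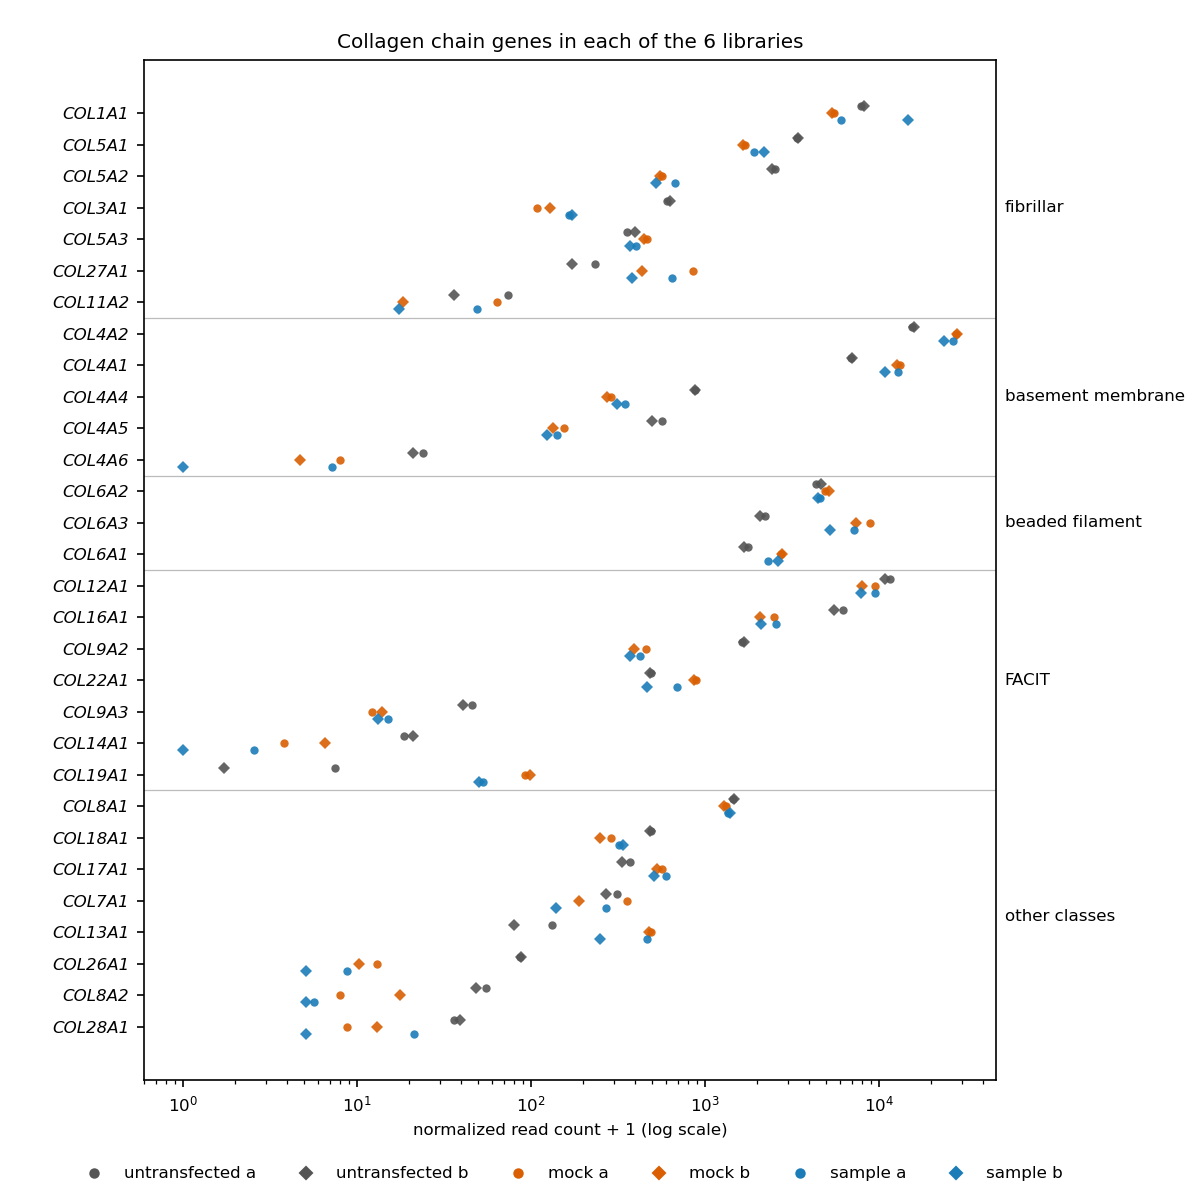
Normalized read count + 1 on a log axis for the 30 chain genes named with values, with 1 point per library and the genes grouped by class. In COL4A1, COL4A2 and COL6A3 all 4 transfected libraries lie to the right of both untransfected libraries, and in COL3A1, COL5A2, COL9A2 and COL16A1 all 4 lie to the left.

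Mock transfection was compared with no transfection to show what transfection with plasmids lacking the light-controlled activator went with. Of 40 chain genes that the authors' deposited table tested, 10 rose and 16 fell at an adjusted p under 0.05, DESeq2's Wald test with Benjamini-Hochberg adjustment over the whole table. Over all 14221 genes tested, 55.8% were called, 30.3% higher and 25.4% lower, so the members' 65.0% lay above the background, with a larger share lower and a smaller share higher than over all genes. The median log2 fold change of the 40 was -0.19, beside 0.01 over all genes. Called with a change of 1 log2 unit or more were 16 of the 40 tested members, a larger share than the 16.4% of all genes. Of the 34 members with a mean of at least 10, both mock libraries lay above both untransfected ones in 11, beside 41.4% of all such genes, and below in 20, beside 42.4%.

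Sample cells against untransfected cells gave 8 chain genes that rose and 12 that fell among 34 tested in the authors' deposited table, where 40.5% of 13383 genes were called, 22.1% higher and 18.4% lower. The members' median was -0.40 and that of all genes 0.01. Of the 34 tested members, 13 were called with a change of 1 log2 unit or more, a larger share than the 12.5% of all genes. Both sample libraries lay above both untransfected ones in 8 of the 34, beside 36.8% of genes, and below in 20, beside 39.0%. The untransfected libraries are shared by both comparisons, so their values stand side by side below and are no independent support for each other. The same 8 chains were called higher and the same 12 called lower in both comparisons. COL6A2 and COL22A1 were called higher, and COL1A1, COL4A6, COL9A3 and COL28A1 lower, in mock cells alone, and the direct test of sample against mock called none of the 5 it tested, COL4A6 being left untested there. Deposited fold changes are shrunk toward 0, most of all for genes with few reads.

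**Figure D2:**
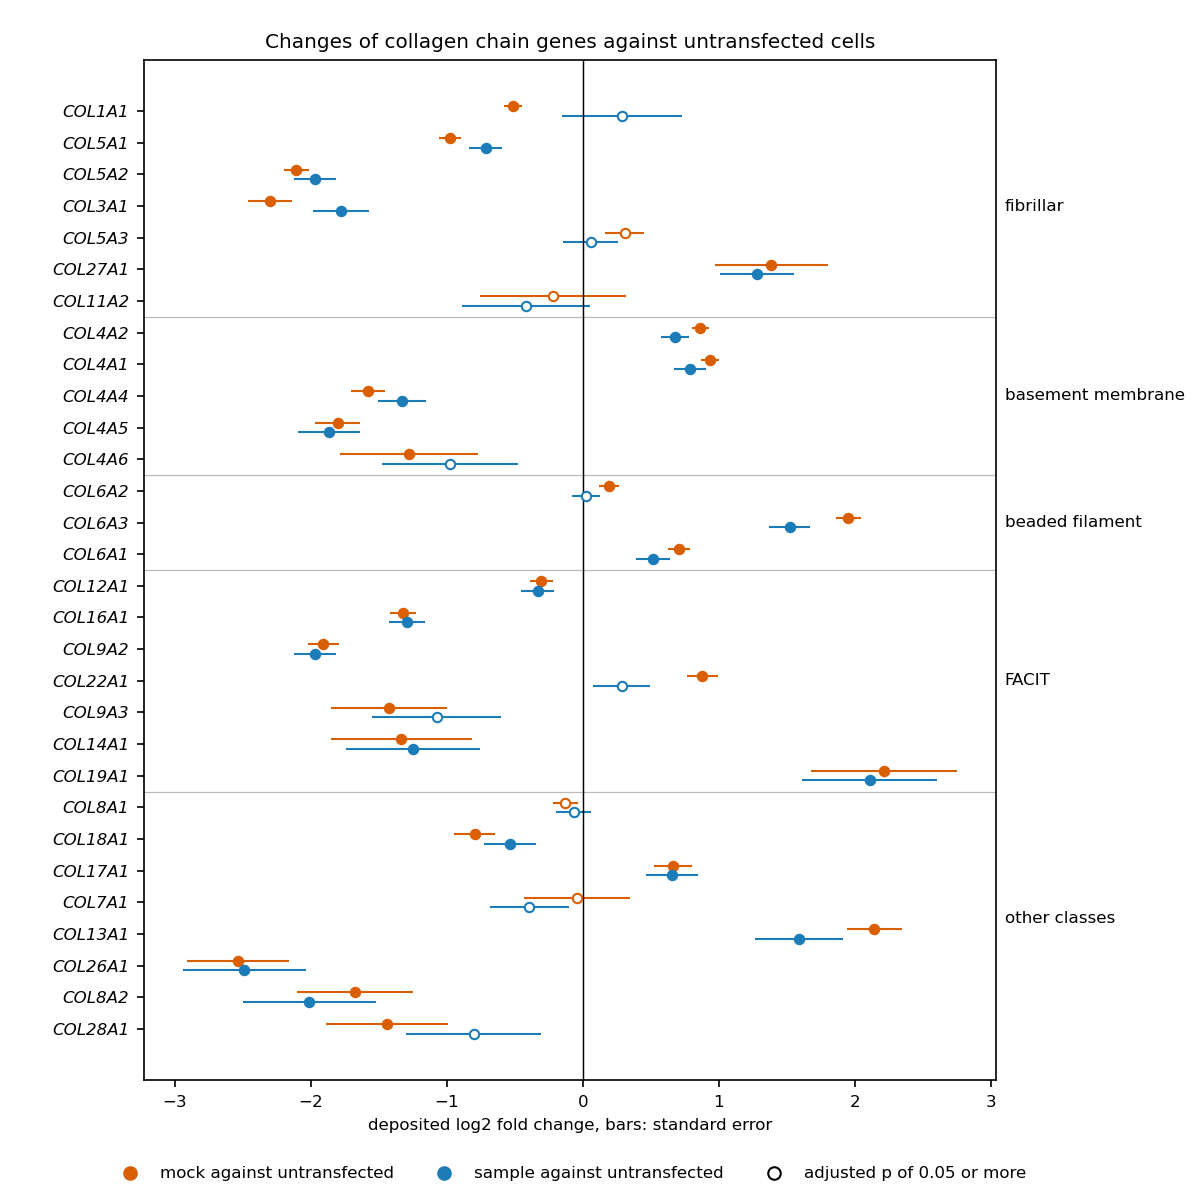
Deposited log2 fold change against untransfected cells for the same chain genes, with bars for the standard error, orange for mock and blue for sample, and open points where the adjusted p was 0.05 or more. Filled points to the right rose and filled points to the left fell, from 2.22 for COL19A1 to -2.54 for COL26A1 in mock cells, and the pairs of points lie on the same side of 0 except for COL1A1.

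Fibrillar chains form the cross-striated fibrils of connective tissue. Of these, 4 of 10 tested fell and 1 rose in mock cells, and 3 of 9 fell and 1 rose in sample cells. The called share, 50% and 44.4%, lay near the 55.8% and 40.5% of all genes. COL3A1 (chr2:188974373-189012746), the homotrimer of extensible tissues, had 603 and 630.3 normalized read counts without transfection, 108 and 128 after mock and 165 and 173 after sample transfection. The transfected libraries were all far below the untransfected ones. The authors' deposited table gives log2 fold changes of -2.30 (SE 0.16, adjusted p = 5.9e-44) in mock and -1.78 (SE 0.21, adjusted p = 2.15e-16) in sample cells.

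COL5A2 (chr2:189031915-189179879), a chain of the type V collagen that starts fibrils, lies beside COL3A1 on the other strand, with 19168 bases between the entries. It had 2550 and 2448 normalized read counts without transfection, 565 and 553 after mock and 671 and 522 after sample transfection. The authors' deposited table puts its log2 fold changes at -2.11 (SE 0.09, adjusted p = 6.41e-109) and -1.97 (SE 0.15, adjusted p = 1.54e-35). All transfected libraries lay below both untransfected ones, while mock and sample libraries overlapped.

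COL5A1 (chr9:134641805-134844843), the other main type V chain, fell less. It stood at 3409 and 3447 normalized read counts without transfection, 1713 and 1665 after mock and 1922 and 2208 after sample transfection. The authors' deposited table puts them, as log2 fold changes, at -0.98 (SE 0.08, adjusted p = 3.16e-34) and -0.72 (SE 0.12, adjusted p = 2.97e-08). Per kilobase of transcript, COL5A1 was 1.12 and 1.18 times COL5A2 in untransfected, 2.55 and 2.53 times in mock and 2.40 and 3.55 times in sample libraries. COL5A3, the third type V chain, was not called, at 355 and 399 normalized read counts without transfection, 466 and 446 after mock and 401 and 370.0 after sample transfection. With limma-voom on counts recovered from the tables, COL5A3 passed in mock cells at a log2 fold change of 0.28 (adjusted p = 0.0423).

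COL1A1 (chr17:50184096-50201639), the main chain of type I collagen, had 7885 and 8214 normalized read counts in untransfected and 5550 and 5435 in mock libraries, a log2 fold change of -0.51 (SE 0.07, adjusted p = 2.43e-13) in the authors' deposited table. Pooling the spread of all 6 libraries, limma-voom gave -0.55 with an adjusted p of 0.125 and did not call it. The sample libraries stood apart, at 6091 in a and 14751 in b. Against untransfected cells the deposited change was 0.29 (SE 0.44, adjusted p = 0.661) in the authors' deposited table. Without sample library b, limma-voom gave -0.39, and without library a 0.87, so 1 library sets the direction of COL1A1 in sample cells. Each of these fits leaves 1 sample library and takes its spread from the other groups. SOX9, a chondrocyte factor among the markers, was likewise at 1073 in sample library a and 2512 in b.

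COL27A1 (chr9:114155545-114312516), a fibrillar chain of cartilage, was the 1 fibrillar member that rose. It had 234 and 172 normalized read counts without transfection, 854 and 435 after mock and 652 and 382 after sample transfection. All transfected values exceed the untransfected ones, and in each group the deeper library was higher. The authors' deposited table gives log2 fold changes of 1.39 (SE 0.42, adjusted p = 0.00233) in mock and 1.28 (SE 0.27, adjusted p = 1.56e-05) in sample cells. In sample cells the limma-voom value of 1.51 became 0.93 (adjusted p = 0.123) without sample library a and 1.29 (adjusted p = 0.0503) without untransfected library b.

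COL11A2, a cartilage chain, was not called and differed as much within groups as between them, at 73.3 and 35.3, 62.8 and 17.6, and 48.4 and 16.4 normalized read counts. Its partner COL11A1, read from its noncoding entry and named here after its values were seen, had 4462 and 4388 normalized read counts without transfection, 1141 and 1088 after mock and 1405 and 1176 after sample transfection. That entry fell by 1.94 (SE 0.08) in mock and by 1.72 (SE 0.13) in sample cells on the log2 scale in the authors' deposited table. COL1A2, also named after its values were seen, held only 16.6 to 28.2 normalized read counts per library and was not called. Per kilobase, COL1A1 was 225 and 398 times COL1A2 in untransfected, 226 and 197 times in mock and 196 and 481 times in sample libraries, ratios that rest on 6 to 43 COL1A2 reads. The chains of the type I trimer were thus at very unequal transcript levels in every library.

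Among basement membrane chains, COL4A1 and COL4A2 rose and COL4A4 and COL4A5 fell in both transfected groups. In mock cells 2 of 6 tested rose and 3 fell, and in sample cells 2 rose and 2 fell. These calls made 83.3% and 66.7%, beside 55.8% and 40.5% of all genes. COL4A1 (chr13:110148958-110307157), the alpha 1 chain of the type IV network found in nearly all basement membranes, had 6926 and 7010.2 normalized read counts without transfection, 13315 and 12759.9 after mock and 13016 and 10895 after sample transfection. The authors' deposited table puts its log2 fold changes at 0.94 (SE 0.07, adjusted p = 1.69e-45) and 0.79 (SE 0.12, adjusted p = 3.07e-10).

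COL4A2 (chr13:110307284-110513027), its partner in the trimer, had 15627 and 16058 normalized read counts without transfection, 28024 and 28354 after mock and 26745 and 23697 after sample transfection. The authors' deposited table gives log2 fold changes of 0.87 (SE 0.06, adjusted p = 5.76e-44) and 0.68 (SE 0.10, adjusted p = 7.21e-10). Both genes were higher in every transfected library than in any untransfected one. Their starts lie 127 bases apart on opposite strands, within the shared promoter sequence shown above. Per kilobase of transcript, COL4A2 was 2.30 and 2.33 times COL4A1 in untransfected, 2.14 and 2.26 times in mock and 2.09 and 2.22 times in sample libraries, so the pair kept nearly the same ratio while both rose.

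COL4A4 (chr2:227002711-227164559), which joins COL4A3 and COL4A5 in the basement membrane of the kidney glomerulus, had 879 and 881 normalized read counts without transfection, 289 and 274 after mock and 350 and 312 after sample transfection. It fell by 1.58 (SE 0.13, adjusted p = 3.2e-34) and by 1.33 (SE 0.18, adjusted p = 6.33e-13) on the log2 scale in the authors' deposited table. COL4A3 starts 6 bases from it on the other strand and held at most 16.4 normalized read counts in any library. Per kilobase, COL4A4 was 43.4 and 58.1 times COL4A3 in untransfected libraries, so this head-to-head pair, named after its values were seen, was far less even than COL4A1 and COL4A2.

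COL4A5 (chrX:108439844-108697545) had 570.3 and 500.5 normalized read counts without transfection, 155 and 134 after mock and 140.5 and 123 after sample transfection. In the authors' deposited table it fell by 1.80 (SE 0.17, adjusted p = 2.86e-26) and 1.87 (SE 0.23, adjusted p = 8.54e-15) on the log2 scale. Its head-to-head neighbour COL4A6 had 22.9 and 20.2 normalized read counts in untransfected, 7.06 and 3.70 in mock, 6.24 in sample library a and 0 in b, where a count of 0 allows up to 12.3. COL4A6 fell in mock cells by 1.28 (SE 0.51, adjusted p = 0.024) on the log2 scale in the authors' deposited table, a call that limma-voom lost without mock library b (adjusted p = 0.0673). Its sample value in that table, -0.97 (SE 0.50, adjusted p = 0.116), missed the threshold, whereas limma-voom gave -2.44 (adjusted p = 0.0057).

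**Figure D3:**
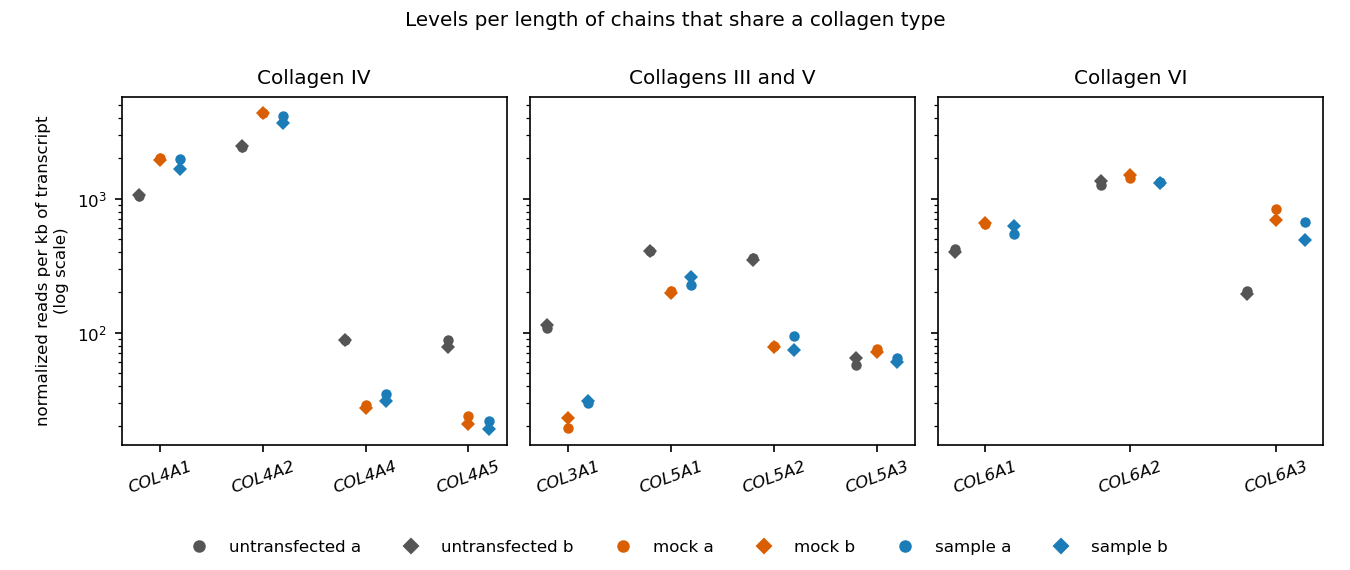
Normalized reads per kilobase of transcript on a log axis, 1 point per library, for type IV chains, types III and V, and type VI, without chains that held few reads. COL4A1 and COL4A2 move up in parallel, COL4A4 and COL4A5 move down, and COL6A3 rises from below COL6A1 in untransfected cells.

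Beaded filament chains rose where they were called, with 3 of 5 tested higher in mock cells and 2 of 3 in sample cells, and none lower. The called share was 60% in mock cells, near the 55.8% of all genes, and 66.7% in sample cells, beside 40.5%. COL6A3 (chr2:237324012-237414207), the longest chain of type VI collagen, had 2216 and 2082 normalized read counts without transfection, 8940.0 and 7442 after mock and 7191 and 5283 after sample transfection. The authors' deposited table gives log2 fold changes of 1.95 (SE 0.09, adjusted p = 1.03e-101) and 1.52 (SE 0.15, adjusted p = 5.74e-22). Every transfected library was above every untransfected one, and sample library b was the lowest of the 4.

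COL6A1 (chr21:45981749-46005049) rose less. It had 1770.5 and 1690.5 normalized read counts without transfection, 2741 and 2779 after mock and 2324 and 2639 after sample transfection. The authors' deposited table puts its log2 fold changes at 0.71 (SE 0.08, adjusted p = 4.34e-17) and 0.52 (SE 0.12, adjusted p = 0.000181). Per kilobase, COL6A3 was 0.49 times COL6A1 in both untransfected libraries, 1.29 and 1.06 times in mock and 1.22 and 0.79 times in sample libraries. COL6A2, the third chain of the common trimer, had 4377 and 4684 normalized read counts without transfection, 4905 and 5188 after mock and 4619 and 4485 after sample transfection. It was called higher in mock cells at 0.19 (SE 0.07, adjusted p = 0.0211) in the authors' deposited table, but limma-voom gave 0.16 (adjusted p = 0.0838), and with library sizes set by total counts -0.0045, so its direction depends on the scaling. COL6A5 and COL6A6, which can replace COL6A3 in the trimer, held at most 6.35 normalized read counts in any library.

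FACIT chains mostly fell, 5 of 9 tested in mock cells and 4 of 7 in sample cells, with 2 and 1 higher. Either way 77.8% and 71.4% were called, beside 55.8% and 40.5% of all genes. COL9A2 (chr1:40300491-40317267), a chain of the type IX collagen that coats cartilage fibrils, had 1644 and 1680.4 normalized read counts without transfection, 459 and 389 after mock and 427 and 370.0 after sample transfection. The authors' deposited table gives log2 fold changes of -1.91 (SE 0.11, adjusted p = 1.75e-64) and -1.97 (SE 0.15, adjusted p = 4.87e-35). COL9A3, of the same trimer, went from 45.2 and 39.7 to 11.3 and 13.0 after mock and 14.05 and 12.3 after sample transfection. COL9A3 fell by 1.42 (SE 0.43, adjusted p = 0.00219) on the log2 scale in mock cells in the authors' deposited table, and its sample value there was -1.08 (adjusted p = 0.0603). The limma-voom fit called COL9A3 lower in sample cells too, at -1.57 (adjusted p = 0.0037). COL9A1 held at most 1.85 normalized read counts.

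COL16A1 (chr1:31652247-31704167), found at the edges of fibrils and microfibrils, had 6283 and 5575 normalized read counts without transfection, 2503 and 2071 after mock and 2571 and 2101 after sample transfection. In the authors' deposited table it fell by 1.33 (SE 0.10, adjusted p = 6.82e-42) and 1.29 (SE 0.14, adjusted p = 4.54e-20) on the log2 scale. COL12A1 (chr6:75084326-75205907), which sits on type I fibrils, fell by a smaller step, from 11562 and 10841 normalized read counts to 9604 and 8032 after mock and 9575 and 7922 after sample transfection. The authors' deposited table puts its log2 fold changes at -0.31 (SE 0.09, adjusted p = 0.000912) and -0.33 (SE 0.12, adjusted p = 0.0199). With limma-voom the COL12A1 call was lost in mock cells without untransfected library a (adjusted p = 0.12), untransfected library b (0.0529) or mock library b (0.142). In sample cells it was lost without untransfected library a (adjusted p = 0.142), untransfected library b (0.0644) or sample library b (0.0904).

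COL14A1, a close relative of COL12A1, had 17.7 and 20.2 normalized read counts in untransfected, 2.82 and 5.55 in mock, 1.56 in sample library a and 0 in b, which allows up to 12.3. It fell by 1.33 (SE 0.52, adjusted p = 0.0214) in mock and by 1.25 (SE 0.49, adjusted p = 0.0328) in sample cells on the log2 scale in the authors' deposited table.

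COL19A1, a rare chain of basement membrane zones, had 6.55 and 0.72 normalized read counts without transfection, 91.8 and 98.1 after mock and 52.3 and 49.3 after sample transfection. Its untransfected level rests on 10 and 1 reads. The mock mean was 26.1 times and the sample mean 13.98 times the untransfected mean, whereas the authors' deposited table holds shrunken log2 fold changes of 2.22 (SE 0.54, adjusted p = 0.000116) and 2.11 (SE 0.50, adjusted p = 0.000131). With limma-voom the log2 fold change was 5.09 in mock cells, 3.79 without untransfected library b and 6.46 without untransfected library a. In sample cells it was 4.23, and 2.93 and 5.60 without those libraries in the same order. COL22A1, found at tissue junctions such as that of muscle and tendon, had 492 and 483 normalized read counts without transfection, 892 and 869 after mock and 692 and 469 after sample transfection. It rose in mock cells by 0.88 (SE 0.12, adjusted p = 1.95e-13) and stood at 0.28 (SE 0.21, adjusted p = 0.308) in sample cells in the authors' deposited table. The sample value with limma-voom was 0.52 without sample library b and -0.05 without sample library a, fits that leave 1 library in the sample group.

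**Figure D4:**
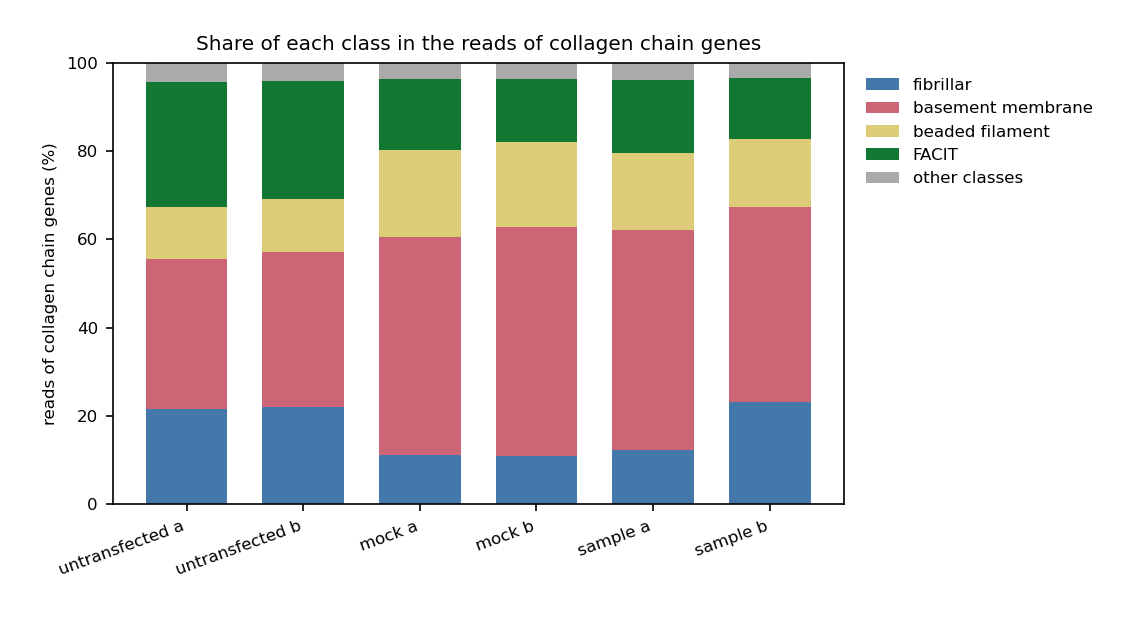
Stacked bars of the percentage of collagen chain reads in each class, 1 bar per library, from 0 to 100%. The basement membrane share is 34.0% and 35.1% in untransfected and 49.5% and 51.9% in mock libraries. The fibrillar share of sample library b, 23.2%, is the highest of the 6 only because COL11A1 is left out.

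As shares of all collagen chain reads, fibrillar chains took 21.5% and 22.0% in untransfected, 11.1% and 10.9% in mock, 12.4% in sample library a and 23.2% in sample library b. COL1A1 alone made up 18.6% of collagen reads in that last library and 6.57% to 11.8% in the others. Basement membrane chains took 34.0% and 35.1%, then 49.5% and 51.9%, then 49.8% and 44.1%. COL4A2 alone took 22.1% and 23.0%, then 33.2% and 35.5%, then 33.1% and 29.8%. COL4A1 took 9.81% and 10.0%, then 15.8% and 16.0%, then 16.1% and 13.7%. The class share thus rests almost wholly on these 2 chains, while COL4A4 and COL4A5 fell. Beaded filament chains took 11.8% and 12.1%, then 19.7% and 19.3%, then 17.5% and 15.6%. FACIT chains took 28.4% and 26.7%, then 16.1% and 14.4%, then 16.5% and 13.8%. For these 3 classes the transfected libraries all lay on one side of the untransfected ones, whereas fibrillar shares overlapped in sample cells through library b. These shares leave out COL11A1.

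Outside the 4 classes, 2 of 10 tested chains rose and 4 fell in mock cells, and 2 of 9 rose and 3 fell in sample cells. Together 60% and 55.6% were called, beside 55.8% and 40.5% of all genes. COL13A1 (chr10:69801888-69959148), a transmembrane collagen of cell adhesion sites and the neuromuscular junction, had 132 and 79.3 normalized read counts without transfection, 488 and 480.2 after mock and 463 and 251 after sample transfection. The authors' deposited table gives log2 fold changes of 2.15 (SE 0.20, adjusted p = 1.28e-25) and 1.59 (SE 0.32, adjusted p = 6.71e-06). The sample value with limma-voom moved from 1.96 to 1.28 without sample library a. COL17A1, the transmembrane collagen of hemidesmosomes, rose from 372 and 335 normalized read counts to 569 and 529 after mock and 597 and 514 after sample transfection. In the authors' deposited table both changes were 0.66, with adjusted p = 7.4e-06 and 0.00272.

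COL26A1 (chr7:101362820-101559024) went from 85.8 and 87.3 normalized read counts in untransfected to 12.0 and 9.25 after mock and 7.80 and 4.11 after sample transfection. Its value in sample library b rests on 1 read. The authors' deposited table gives -2.54 (SE 0.37, adjusted p = 8.48e-11) and -2.49 (SE 0.45, adjusted p = 3.97e-07) on the log2 scale. COL8A2, a chain of the hexagonal network under the corneal endothelium, went from 54.3 and 47.6 to 7.06 and 16.7 after mock and 4.68 and 4.11 after sample transfection. COL8A2 fell by 1.68 (SE 0.43, adjusted p = 0.000258) and 2.01 (SE 0.49, adjusted p = 0.000207) on the log2 scale in the authors' deposited table. Its partner COL8A1 was not called, with 1461 and 1473, 1324 and 1289, and 1371 and 1398 normalized read counts. Per kilobase, COL8A1 was 41.5 and 47.7 times COL8A2 without transfection, 289 and 119 times after mock and 451 and 524 times after sample transfection. These ratios rest on 83 and 66 COL8A2 reads without transfection, 10 and 18 after mock and 6 and 1 after sample transfection.

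COL18A1, whose end fragment is endostatin, had 488 and 483 normalized read counts without transfection, 289 and 249 after mock and 320.0 and 337 after sample transfection. It fell by 0.80 (SE 0.15, adjusted p = 5.41e-07) and 0.54 (SE 0.19, adjusted p = 0.0176) on the log2 scale in the authors' deposited table, and limma-voom lost the sample call without sample library a (adjusted p = 0.0558). Exons of SLC19A1 on the other strand overlap 16.4% of its exonic bases, and whether counting used strand is not given in the sources used here, so those reads are uncertain. Other exon overlaps reached at most 4.0%, in COL5A3. COL28A1 held 1 read in sample library b. It had 35.4 and 38.2 normalized read counts without transfection, 7.77 and 12.0 after mock and 20.3 and 4.11 after sample transfection. It fell in mock cells by 1.44 (SE 0.45, adjusted p = 0.00327) on the log2 scale and stood at -0.80 (adjusted p = 0.203) in sample cells in the authors' deposited table. Limma-voom lost the mock call without mock library a (adjusted p = 0.0556) and gave -1.31 (adjusted p = 0.0412) in sample cells, which became -2.59 without sample library a and -0.83 without b. COL7A1, of the anchoring fibrils under the epidermis, was not called. It had 311 and 271, 358 and 189, and 268 and 140 normalized read counts, and in each group the deeper library was higher.

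The other 13 members were not called and held at most 39.9 normalized read counts in any library: COL1A2, COL2A1, COL4A3, COL6A5, COL6A6, COL9A1, COL10A1, COL15A1, COL20A1, COL21A1, COL23A1, COL24A1 and COL25A1. Type II collagen (COL2A1), the main cartilage fibril, and type X (COL10A1), a marker of hypertrophic cartilage, were among them.

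Ordered by level per kilobase in untransfected cells, COL4A2 came first at 2440 normalized reads per kilobase, then COL6A2 at 1309, COL1A1 at 1197, COL4A1 at 1053, COL16A1 at 1034 and COL12A1 at 956. COL4A1 and COL16A1 differed by less than the spread of COL16A1 between its libraries. In mock cells COL4A2 stood at 4341 per kilobase and COL4A1 at 1971, followed by COL6A2 at 1458, and COL16A1 was at 399. COL6A3 moved from 199.95 to 762 per kilobase in mock and 580.2 in sample cells.

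Genes that process, secrete, cleave, crosslink or bind collagen were counted as a list. Of 49 such genes, 47 were analysed here, and 46 were tested in each of these comparisons in the authors' deposited table. In mock cells 8 rose and 23 fell, with a median log2 fold change of -0.32, and in sample cells 4 rose and 15 fell, with a median of -0.30. The 31 called in mock cells made 67.4%, beside 55.8% of all genes (30.3% higher and 25.4% lower), and the 19 in sample cells made 41.3%, near the 40.5% of all genes (22.1% higher and 18.4% lower). The limma-voom counts were 7 and 26 in mock cells and 6 and 22 in sample cells, where it called 61.6% and 53.6% of all genes, and with library sizes set by total counts 6 and 32, and 5 and 29. Total-count sizes moved the median of all genes by -0.16 in mock and -0.13 in sample cells.

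Maturation enzymes and chaperones went both ways, 6 of 19 higher and 7 lower in mock cells and 3 higher and 3 lower in sample cells. These calls made 68.4% and 31.6%, beside 55.8% and 40.5% of all genes. PLOD2, the lysyl hydroxylase of telopeptides, had 4640.5 and 4664 normalized read counts without transfection, 9791 and 10638 after mock and 9381 and 8185 after sample transfection. It rose by 1.17 (SE 0.07, adjusted p = 9.5e-59) and 0.92 (SE 0.11, adjusted p = 2.52e-15) on the log2 scale in the authors' deposited table. PLOD3 rose by 0.93 and 0.89 and COLGALT1, a collagen galactosyltransferase, by 0.62 and 0.72 in that order in the authors' deposited table. SERPINH1, the collagen chaperone HSP47, fell by 0.61 (adjusted p = 7.91e-17) and 0.30 (adjusted p = 0.0159) on the log2 scale in the authors' deposited table. P4HA1, a prolyl hydroxylase subunit, fell by 0.49 and 0.47 in the authors' deposited table. P4HB and PPIB were called higher in mock cells at 0.19 and 0.28 in the authors' deposited table. With limma-voom P4HB stood at 0.15 (adjusted p = 0.157) in mock cells and was not called.

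Of 6 secretion genes, SEC23A, a coat subunit of export vesicles, was the 1 called gene, and it fell by 0.44 and 0.47 on the log2 scale in mock and sample cells in the authors' deposited table. Among 8 propeptide cleavage genes 5 fell and 1 rose in mock cells and 3 fell and 1 rose in sample cells. Calls made 75% and 50% of this list and 16.7% of the secretion list in each comparison, beside 55.8% and 40.5% of all genes. ADAMTS2, which removes the amino-terminal propeptide, fell from 257 and 260.4 normalized read counts to 115 and 103 after mock and 112 and 111 after sample transfection. BMP1, which removes the carboxy-terminal one, fell by 0.44 and 0.45, its enhancer PCOLCE fell by 1.08 and 0.85, and PCOLCE2 rose by 0.49 and 0.45 in the authors' deposited table.

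Of 5 lysyl oxidases, which crosslink fibrils, 4 fell in mock cells and 3 in sample cells. That was 80% and 60% called, beside 55.8% and 40.5% of all genes. LOXL4 had 7622 and 8424 normalized read counts in untransfected, 1418 and 1466 in mock and 1673 in both sample libraries. It fell by 2.43 (SE 0.08, adjusted p = 4.23e-204) and 2.22 (SE 0.11, adjusted p = 2.6e-84) on the log2 scale in the authors' deposited table. LOXL1 fell by 1.31 and 1.18 and LOXL2 by 0.43 and 0.38 in the authors' deposited table. LOX fell by 0.33 in mock cells and stood at -0.30 (adjusted p = 0.0786) in sample cells in the authors' deposited table.

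Of 8 receptors tested, 6 fell and 1 rose in mock cells and 5 fell in sample cells. Either way 87.5% and 62.5% were called, beside 55.8% and 40.5% of all genes. DDR2, a discoidin domain receptor tyrosine kinase for fibrillar collagen, had 769 and 803 normalized read counts in untransfected, 280 and 265 in mock, 345 in sample library a and 539 in b. It fell by 1.47 (SE 0.13) and 0.82 (SE 0.21) on the log2 scale in the authors' deposited table. DDR1, its relative, fell by 0.79 and 0.85, and MRC2, which takes up collagen for breakdown, by 0.66 and 0.71 in the authors' deposited table. GP6, known as a platelet collagen receptor, fell by 2.05 and 1.59 in the authors' deposited table. ITGB1, the shared beta 1 integrin, was not called, with 23020.4 and 21591, 24057 and 22951, and 23204 and 16663 normalized read counts.

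Sample cells were set against mock cells to compare plasmids with and without the light-controlled activator. None of 30 chain genes tested was called in the authors' deposited table, where 10 of 13158 genes, 0.076%, were called, and limma-voom called none either, of members or of all 12965 genes. At an unadjusted p under 0.05, 3 members passed with DESeq2, COL5A1, COL6A3 and COL22A1, beside 2.14% of all genes, and 6 with limma-voom, beside 4.49%. None of the 46 pathway genes tested was called by either tool, and 2 with DESeq2 and 6 with limma-voom had an unadjusted p under 0.05. The members' deposited log2 fold changes ran from -0.34 for COL22A1 to 0.22 for COL5A1 in the authors' deposited table. The limma-voom estimates, which are not shrunk, were -0.37 for COL6A3, -0.48 for COL22A1, 0.25 for COL5A1, 0.52 for COL3A1, 0.74 for COL1A1 and -0.86 for COL19A1.

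One library decides this comparison too. Without sample library a, limma-voom called 8.04% of all genes, 6.35% higher and 1.69% lower, and 4 members with them. COL6A3 stood at -0.63 (adjusted p = 0.00199) and COL22A1 at -0.91 (adjusted p = 0.00365), and COL5A1 at 0.38 (adjusted p = 0.0351) and COL1A1 at 1.42 (adjusted p = 5.6e-08). This fit leaves sample library b alone in its group and takes its spread from the other groups.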

How the data were processed

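The labels' protocols name commercial kits for the RNA and the directional libraries. The submitters' processing notes name hg38, STAR, Bowtie and DESeq2. The versions, roles, annotation and counting settings were not given in the sources used here. Per the file headers, each of the 3 tables deposited by the authors lists 40029 transcripts with the signal averaged over 4 libraries as a normalized count, a log2 fold change with its standard error, a Wald score, and a p-value with its adjusted value. The values show that the deposited log2 fold changes are shrunk toward 0.

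The deposited signal averages whole counts over size factors, so the counts of all 6 libraries were solved by lattice reduction, for all 30527 entries with reads within a relative tolerance of 1e-14. This was tested on simulated data. Which library carries which replicate number is not known. A RefSeq gene table and GENCODE 29 gave symbols to 39720 entries (99.2%), and the 309 others held 0.0841% of reads. Isoforms of a gene can share reads. Counts were normalized with median-of-ratios size factors over 13502 genes, and levels per kilobase used GENCODE 29 transcript lengths, matched by accession for 41 of 43 members and by the longest coding transcript for COL1A1 and COL24A1.

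The DESeq2 test of the authors at an adjusted p under 0.05 was the main test, since the tables hold no raw counts. Its missing adjusted p-values count as not tested. Recovered counts were fitted in one model with limma-voom (limma 3.58.1, R 4.3.3), on genes with a mean of at least 10 and with Benjamini-Hochberg adjustment. Members with a mean of at least 50 in any table or called in any were named with values, as were up to 6 called genes per pathway list, those with the highest mean. Intervals and the floor of 3 counts cover counting error only. Members and lists were chosen with earlier results of these data known. Alternatives changed the threshold, filters, scaling, test, entries and libraries. A fit without 1 library leaves the other alone in its group, so its p-values take their spread from the other groups. COL11A1 was added as one alternative after seeing the data. Python 3.11.15, numpy 2.4.6, pandas 2.3.3, sympy 1.14.0 and matplotlib 3.10.9 were used.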

Additional observations from a re-analysis of the deposited data

How the results depend on the processing

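The 2 libraries per group limit all calls, and sample library b with 9579278 reads limits low chains. No paired analysis was possible because the recovered libraries cannot be tied to the replicate numbers of the labels. Requiring a log2 fold change of at least 1 left 16 of 40 tested chain genes called in mock and 13 of 34 in sample cells, of which 4 were higher in each. Over all genes 16.4% and 12.5% passed. Of the pathway genes 2 were higher and 10 lower in mock, and 0 higher and 5 lower in sample cells. Pathway genes lower in sample cells numbered 29 in limma-voom with total-count and 27 with upper-quartile library sizes.

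Leaving out each library in turn in limma-voom gave 9 to 11 chain genes higher and 12 to 17 lower in mock cells, and 7 to 9 and 11 to 15 in sample cells. Pathway genes numbered 5 to 7 higher and 19 to 28 lower in mock, and 3 to 6 and 16 to 20 in sample cells. Between sample and mock cells 0 to 2 chain genes were higher and 0 to 2 lower, and 0 to 3 and 0 to 2 pathway genes, with the upper values without sample library a.

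No called chain gene changed sign when a library was left out. With total-count sizes COL6A2 turned to -0.0045 in mock cells, and in sample cells COL1A1 to -0.0088, COL5A3 to -0.058 and COL6A2 to -0.11. With upper-quartile sizes COL5A3 turned to -0.019 and COL6A2 to -0.076 in sample cells. In mock cells COL7A1 turned to 0.30 without mock library b, and COL11A2 to 0.28 without mock library b and 0.011 without untransfected library a. In sample cells COL11A2 turned to 0.11, COL5A3 to -0.016 and COL6A2 to -0.035 without untransfected library a. Without sample library a COL5A3 turned to -0.015, COL6A2 to -0.013 and COL22A1 to -0.053, and without sample library b COL1A1 turned to -0.39. Beyond the library named, the cause was not tested. With COL11A1 added, an alternative chosen after seeing the data, 17 chain genes were lower in mock and 13 in sample cells.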
